A study of Rattus norvegicus with 6 samples.

Results

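The TGF-beta ligands, receptors and Smads were described in the ipsilateral lumbar spinal cord of rats with bone cancer pain (BCP) and of sham-operated rats. The 10 gene names were Tgfb1, Tgfb2, Tgfb3, Tgfbr1, Tgfbr2, Tgfbr3, Smad2, Smad3, Smad4 and Smad7, matched by name. They matched 11 rows of a table of 30957 genes, since 2 rows carry the name Tgfbr1, and all 11 rows were among the 14908 genes with enough counts to be tested. BCP was induced in female Wistar rats with living Walker 256 cells, a rat mammary carcinoma line, placed in the marrow cavity of the left tibia, while sham-operated rats received heat-killed cells of the same line. The spinal cord was taken on day 14, its meninges were removed, and RNA depleted of ribosomal RNA was sequenced in 3 libraries per group. Every rat thus had the bone puncture and received Walker 256 cells, living or killed, and rats without surgery were not analysed here. The libraries are numbered as replicates, and it is not stated that each came from a separate rat, so that p-values measure the spread between these libraries. Counts on genes totaled 11779485 to 15004290 per library and were deepest in sham library 3 and shallowest in BCP library 1.

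TGF-beta is secreted as a latent dimer and must be released before it can act. The active ligand joins a type II receptor, Tgfbr2, which phosphorylates the type I receptor Tgfbr1, and Tgfbr1 in turn phosphorylates Smad2 and Smad3, which enter the nucleus with Smad4. Smad7 is induced by the pathway and blocks the type I receptor. In the central nervous system TGF-beta signaling is known for keeping microglia in their resting, homeostatic state.

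Among the 11 rows, 4 were up-regulated in BCP with an adjusted p under 0.05 by edgeR's quasi-likelihood test, namely Tgfb1, Tgfbr1, Tgfbr2 and Smad3, and none was down-regulated, also at an unadjusted p under 0.05 and with DESeq2 or limma. Of all tested genes 15.8% were higher and 12.1% lower at that threshold. Tgfb1, Tgfbr1 and Tgfbr2 also rose by more than 2-fold, a combination met by 6.35% of tested genes upward and by 0.107% downward. In counts scaled to the library totals (CPM) the libraries of the groups did not overlap, with BCP higher, for 6 of the 11 rows (Tgfb1, Tgfb2, Tgfbr1, Tgfbr2, Smad2 and Smad3), and for no row with BCP lower. This complete separation was found for 21.7% of tested genes with BCP higher and for 19.8% with BCP lower. The 11 rows are not replicates of each other, and the median log2FC of all tested genes was -0.01.

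The promoter sequences of the 4 up-regulated genes are given because these genes moved in the same direction. They span 250 bases before to 50 bases after the start of transcription, 5′ to 3′ on the strand of the gene, from RefSeq on the GRCr8 build, which is newer than the Rnor_6.0 build of the deposited table. Capitals mark the GC box GGGCGG, bound by Sp1, and the PU.1 core GAGGAA, bound by a factor of myeloid cells, each on either strand.
Tgfb1, chr1:90324062-90324361 (+): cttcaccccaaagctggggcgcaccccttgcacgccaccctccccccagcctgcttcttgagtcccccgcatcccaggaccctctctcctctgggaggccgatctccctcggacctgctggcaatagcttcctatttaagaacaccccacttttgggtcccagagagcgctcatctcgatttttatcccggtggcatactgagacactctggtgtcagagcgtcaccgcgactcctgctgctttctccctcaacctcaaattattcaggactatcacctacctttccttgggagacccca
Tgfbr1, chr5:66449148-66449447 (+): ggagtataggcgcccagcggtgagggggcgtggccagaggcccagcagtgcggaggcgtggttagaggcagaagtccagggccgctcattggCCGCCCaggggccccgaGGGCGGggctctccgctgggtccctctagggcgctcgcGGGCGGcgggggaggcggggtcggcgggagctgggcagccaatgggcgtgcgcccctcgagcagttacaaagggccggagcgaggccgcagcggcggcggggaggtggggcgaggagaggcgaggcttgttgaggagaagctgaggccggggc
Tgfbr2, chr8:124761420-124761719 (-): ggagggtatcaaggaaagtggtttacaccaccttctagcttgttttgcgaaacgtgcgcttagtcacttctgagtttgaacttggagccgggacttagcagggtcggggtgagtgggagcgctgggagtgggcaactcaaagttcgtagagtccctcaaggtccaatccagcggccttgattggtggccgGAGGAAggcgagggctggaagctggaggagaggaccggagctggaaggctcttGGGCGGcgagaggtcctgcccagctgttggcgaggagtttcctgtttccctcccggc
Smad3, chr8:73132275-73132574 (-): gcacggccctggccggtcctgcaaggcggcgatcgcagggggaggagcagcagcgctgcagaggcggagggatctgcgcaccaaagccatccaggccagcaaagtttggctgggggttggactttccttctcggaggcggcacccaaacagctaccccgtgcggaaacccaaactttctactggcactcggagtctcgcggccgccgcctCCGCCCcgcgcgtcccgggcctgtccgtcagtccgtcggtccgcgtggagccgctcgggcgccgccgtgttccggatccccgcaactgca

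All 10 names had a promoter in the RefSeq table of 33469 windows of the same length, and Smad2 had 2 windows. GGGCGG lay 3 times in the Tgfbr1 window and once each in those of Tgfbr2, Smad3 and Tgfbr3, while 33.1% of all windows held it. The window of Smad7 held it 2 times, and those of Smad2 held it 2 and 5 times. The windows of Smad2 overlap, and the 2 sites of the first are among the 5 of the second. GAGGAA lay in the windows of Tgfbr2, Tgfb2 and Tgfbr3 and in 27.6% of all windows. The Smad box CAGAC, present in 50.1% of windows, the Smad palindrome GTCTAGAC (0.197%) and the AP-1 site TGANTCA (7.33%) were in none of the 11 windows. Smad4 alone held the TATA box TATAAA (14.2% of windows), and Tgfb2 alone the E-box CACGTG (6.42%). The Tgfb1 window held none of these 7 motifs. The guanine and cytosine content was 57.7% for Tgfb1, 59.0% for Tgfbr2, 69.7% for Smad3 and 74.7% for Tgfbr1, against a median of 51.7% over all windows. For the other names it was 31.7% (Smad4), 47.7% (Tgfb3), 59.0% (Tgfb2), 69.7% (Tgfbr3), 77.7% (Smad7) and 80.0% and 82.7% (Smad2). A high content was thus not particular to the 4 up-regulated genes. These matches of letters are descriptions and were not tested for binding.

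Of the 3 ligands, Tgfb1 rose, and Tgfb2 and Tgfb3 did not pass the test. Tgfb1 (ENSRNOG00000020652, chr1:82480195-82497199, Rnor_6.0), the isoform made chiefly by microglia, macrophages and other immune cells, had 10.219, 10.756 and 10.001 CPM in sham libraries 1, 2 and 3 and 27.7, 39.0 and 38.3 CPM in BCP libraries 1, 2 and 3. The lowest BCP library thus lay well above the highest sham library, and BCP 1 was the lowest of its group. These values rested on 134, 154 and 148 counts in sham and 328, 546 and 506 in BCP. The log2FC was 1.76 (SE 0.12, 95% confidence interval 1.50 to 2.03), a 3.40-fold rise with an adjusted p of 7.35e-09 by edgeR, the 146th smallest among all tested genes.

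Tgfb2 (ENSRNOG00000002418, chr13:105039853-105141030), an isoform made largely by neurons and astrocytes, had 39.3, 39.5 and 39.1 CPM in sham and 41.2, 43.2 and 43.0 CPM in BCP. The groups did not overlap, but the sham libraries lay within a coefficient of variation of 0.429%, and the shift was small. Its log2FC of 0.11 (SE 0.07, 95% confidence interval -0.04 to 0.26) did not pass the test (adjusted p = 0.281 by edgeR). Tgfb3 (ENSRNOG00000009867, chr6:109913757-109935533), the third isoform, had 20.2, 17.6 and 19.5 CPM in sham and 16.9, 19.9 and 19.5 CPM in BCP. Its groups overlapped, and BCP 1 was the lowest library of all. The log2FC was -0.02 (SE 0.10, 95% confidence interval -0.24 to 0.20), with an adjusted p of 0.909 by edgeR, and the sign of this value changed under other settings.

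Per length, in FPKM (fragments per kilobase of gene, scaled to library size), Tgfb1 was the lowest of the ligands in the sham libraries and the highest in the BCP libraries. Its share of the summed FPKM of the 3 ligands was 23.2%, 25.2% and 23.1% in sham and 46.4%, 52.4% and 52.3% in BCP. The mean share thus went from 23.8% ± 1.21 to 50.4% ± 3.45 (SD, n = 3), a difference of 26.5 percentage points. Every BCP library exceeded every sham library, which gave an exact two-sided permutation p of 0.1, the smallest that 3 against 3 libraries allow. The share of Tgfb2 was 40.2% ± 0.800 and 27.4% ± 2.70, and that of Tgfb3 36.0% ± 1.96 and 22.2% ± 0.765 (SD, n = 3). The shares sum to the whole, so that those of Tgfb2 and Tgfb3 had to be lower where that of Tgfb1 was higher, and the summed FPKM of the ligands itself was 19.9 ± 0.276 and 32.8 ± 4.09 (SD, n = 3). The log2 ratio of Tgfb1 to Tgfb2 FPKM was -0.75 ± 0.05 in sham and 0.88 ± 0.24 in BCP, a difference of 1.63 (exact permutation p = 0.1, n = 3). It was negative in every sham library and positive in every BCP library. Over the 4 shares and ratios tested in this way for ligands, receptors and Smads, the adjusted p was 0.133 for both of these measures by the Benjamini-Hochberg method.

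**Figure D1:**
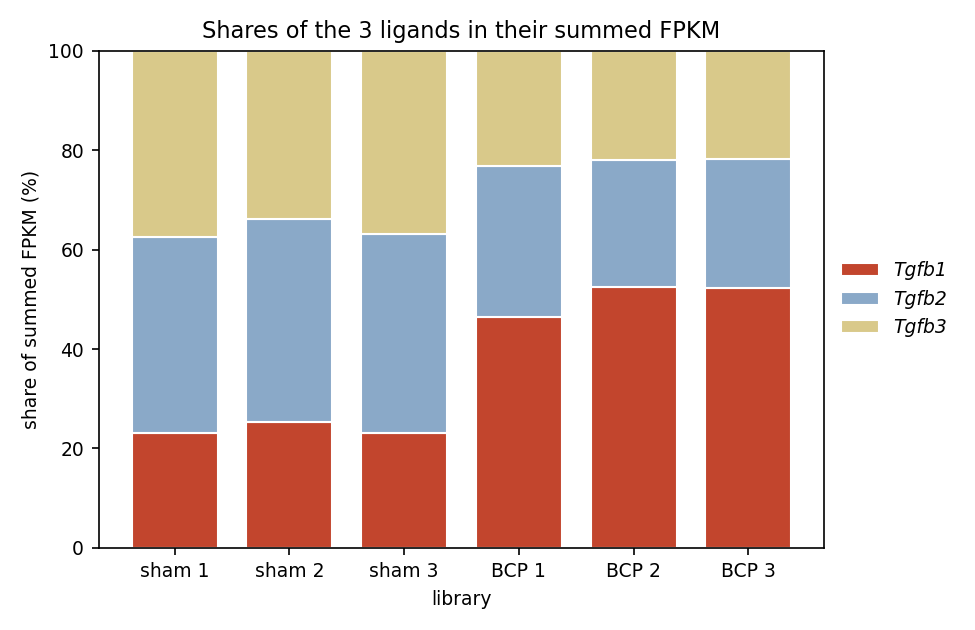
Share of Tgfb1, Tgfb2 and Tgfb3 in their summed FPKM (%, vertical axis) in each of the 6 libraries (horizontal axis), as stacked bars that add up to the whole. Tgfb1 made up 23.1% to 25.2% in sham and 46.4% to 52.4% in BCP.

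Among the receptors, the pair that carries the signal rose by more than 2-fold, whereas the coreceptor Tgfbr3 did not pass the test. Tgfbr1 (ENSRNOG00000007036, chr5:63050758-63119635), the type I receptor, also called ALK5, had 65.7, 60.7 and 61.4 CPM in sham and 129, 126 and 139 CPM in BCP. The groups were far apart and the BCP libraries close together, with a coefficient of variation of 5.17%. The log2FC was 1.07 (SE 0.06, 95% confidence interval 0.95 to 1.19), a 2.09-fold rise with an adjusted p of 2.64e-11 by edgeR, the smallest among the 11 rows and 46th among all tested genes. The other row named Tgfbr1 (ENSRNOG00000050760, chr5:64566804-64584309) lies 1.45 Mb away and had 10, 10 and 0 counts in sham and 10, 11 and 10 in BCP. It held at most 1.15% of the counts of both rows in a library, and its log2FC of 0.73 (SE 0.62, adjusted p = 0.433 by edgeR) was not resolved at this depth. It rested on sham 3, without which it was 0.12. Reads from a shared sequence could have been divided between the rows.

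Tgfbr2 (ENSRNOG00000013265, chr8:124312754-124399494), the type II receptor that binds the ligand, had 21.9, 24.3 and 20.7 CPM in sham and 38.6, 55.7 and 53.3 CPM in BCP. All BCP libraries lay above all sham libraries, and BCP 1 was again the lowest of its group. The log2FC was 1.14 (SE 0.13, 95% confidence interval 0.85 to 1.44), a 2.21-fold rise with an adjusted p of 8.34e-05 by edgeR. For Tgfbr2 the CPM of BCP 1 was 0.708 of the mean of the other BCP libraries, and for Tgfb1 it was 0.717, whereas for Tgfbr1 it was 0.971. Without BCP 1 the log2FC was 1.91 for Tgfb1 and 1.297 for Tgfbr2. Tgfbr3 (ENSRNOG00000002093, chr14:3506339-3682545), betaglycan, which presents TGF-beta 2 in particular to the signaling receptors, had 58.3, 56.7 and 53.9 CPM in sham and 54.8, 50.2 and 53.0 CPM in BCP. Its groups overlapped, with a log2FC of -0.10 (SE 0.07, 95% confidence interval -0.24 to 0.05, adjusted p = 0.333 by edgeR). The log2 ratio of Tgfbr2 to Tgfbr1 FPKM was -0.34 ± 0.15 in sham and -0.28 ± 0.28 in BCP, a difference of 0.06 that was smaller than either SD (exact permutation p = 0.9, n = 3, adjusted p = 0.9).

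**Figure D2:**
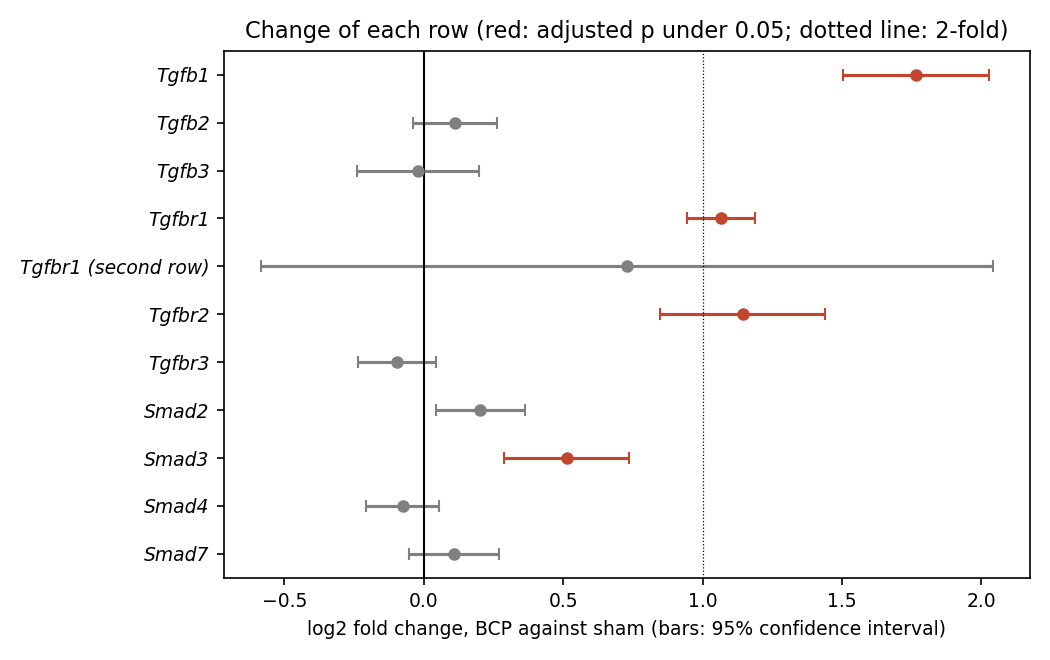
The log2 fold change of BCP against sham for each of the 11 rows (horizontal axis), with its 95% confidence interval as a bar. Tgfb1, Tgfbr1, Tgfbr2 and Smad3 (red) had an adjusted p under 0.05 by edgeR, and the dotted line marks a 2-fold rise.

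Of the Smads, Smad3 alone passed the test, with a smaller log2FC than Tgfbr1 and Tgfbr2, a difference that was not tested itself. Smad3 (ENSRNOG00000008620, chr8:68569530-68678349), the receptor-regulated Smad that binds DNA directly, had 21.8, 18.5 and 15.9 CPM in sham and 25.5, 27.3 and 27.2 CPM in BCP. The groups did not overlap, and the sham libraries were spread more widely than the BCP libraries, with coefficients of variation of 15.7% and 3.70%. The log2FC was 0.51 (SE 0.11, 95% confidence interval 0.29 to 0.73), a 1.43-fold rise with an adjusted p of 0.00100 by edgeR. Smad2 (ENSRNOG00000018140, chr18:72550219-72612078), its partner, had 33.4, 33.9 and 35.5 CPM in sham and 40.8, 39.0 and 38.7 CPM in BCP. Its groups did not overlap either, and its log2FC of 0.20 (SE 0.08, 95% confidence interval 0.04 to 0.36) lay at the edge of the threshold, with an adjusted p of 0.0528 by edgeR. In 4 of 13 other settings Smad2 had an adjusted p under 0.05, the lowest being 0.0216 without TMM factors.

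Smad4 (ENSRNOG00000051965, chr18:69627757-69671199), the common partner of the receptor-regulated Smads, had 87.3, 80.7 and 79.9 CPM in sham and 84.3, 78.0 and 73.0 CPM in BCP. The groups overlapped, with a log2FC of -0.08 (SE 0.06, adjusted p = 0.424 by edgeR). Smad7 (ENSRNOG00000018359, chr18:71395830-71424157), the inhibitory Smad, had 57.7, 50.6 and 51.2 CPM in sham and 58.0, 62.0 and 51.8 CPM in BCP. It overlapped between the groups, with a log2FC of 0.11 (SE 0.08, 95% confidence interval -0.05 to 0.27, adjusted p = 0.338 by edgeR). The log2 ratio of Smad7 to the summed FPKM of Smad2 and Smad3 was -0.13 ± 0.07 in sham and -0.32 ± 0.13 in BCP (SD, n = 3). The difference of -0.19 gave an exact permutation p of 0.1 and an adjusted p of 0.133, and it was -0.12 without BCP 3.

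Compared per length, Smad4 stood highest in both groups, at 30.4 ± 1.39 FPKM in sham and 29.7 ± 1.92 FPKM in BCP (SD, n = 3). In the sham libraries it was followed by Smad7 (12.2 FPKM), Tgfbr1 (9.96), Smad2 (9.63), Tgfbr3 (9.17), Tgfb2 (8.01), Tgfbr2 (7.89), Tgfb3 (7.18), Tgfb1 (4.75) and Smad3 (3.67). Neighbors whose libraries overlapped in this order were Tgfbr1 with Smad2, Smad2 with Tgfbr3, Tgfb2 with Tgfbr2 and Tgfbr2 with Tgfb3. In the BCP libraries Smad4 was followed by Tgfbr1 (21.5 FPKM), Tgfbr2 (17.9), Tgfb1 (16.6), Smad7 (13.5), Smad2 (11.4), Tgfb2 (8.90), Tgfbr3 (8.83), Tgfb3 (7.26) and Smad3 (5.37). Here the libraries of Tgfbr2 overlapped with those of Tgfb1, those of Tgfb1 with those of Smad7, and those of Tgfb2 with those of Tgfbr3. The other row of Tgfbr1 was lowest in both groups, under 1 FPKM in every library. Tgfb1 thus stood the ninth among the 10 names in the sham libraries and the fourth in the BCP libraries, while Smad3 was the lowest of the 10 in both.

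**Figure D3:**
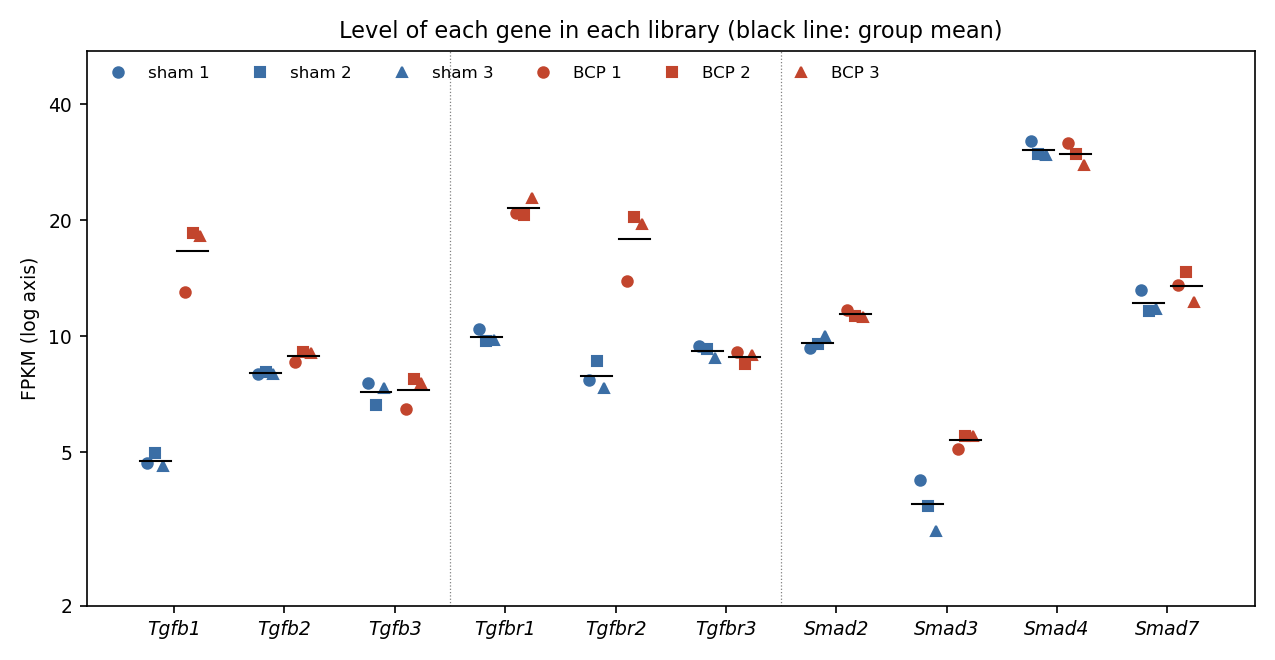
FPKM of each of the 10 genes (vertical log axis) in sham libraries (blue) and BCP libraries (red), with the group mean as a black line; dotted lines separate ligands, receptors and Smads. Tgfb1 went from a mean of 4.75 to 16.6 FPKM, Tgfbr1 from 9.96 to 21.5 and Tgfbr2 from 7.89 to 17.9, while Smad4 stood at 30.4 and 29.7.

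Markers of microglia and of T cells rose in the same libraries. All 15 genes of a list of microglia and macrophage markers were tested and 14 rose, each by more than 2-fold, with a median log2FC of 2.24. Their summed level was 310 to 424 CPM in sham and 1296, 1416 and 1627 CPM in BCP libraries 1, 2 and 3, so that BCP 1 was the lowest of its group here too. In whole tissue, more cells of a type and more RNA per cell cannot be told apart. T cell markers rose in 7 of 7 tested genes, and their summed level was 6.08 to 6.64 CPM in sham and 49.97 to 58.89 CPM in BCP. Most of the sham sum was Cd4, at 4.42, 5.66 and 5.20 CPM in sham and 25.6, 20.5 and 19.7 CPM in BCP. Cd3e had 0, 0 and 1 counts in sham and 56, 104 and 111 in BCP, and Cd3d had 0 counts in every sham library. The sham sum of this list thus did not rest on Cd3e or Cd3d, and which cells held the Cd4 RNA was not tested. Of the 7 tested markers of monocytes and border macrophages 2 rose, Plac8 and Siglec1, with summed levels of 206 to 219 and 330 to 372 CPM. Most of the rise of this sum was Plac8, at 3.13 ± 1.89 CPM in sham and 99.0 ± 16.1 CPM in BCP (SD, n = 3). Most of the sum in either group was Vcan, which was also listed among the markers of oligodendrocyte precursors, so that this sum is not particular to monocytes and border macrophages. Vcan was at a mean of 192 CPM in sham and 209 CPM in BCP and did not pass the test. Mrc1, Cd163, Lyve1 and F13a1 did not pass it either. No B cell marker had enough counts to be tested. Oligodendrocyte markers fell in 9 of 9 genes, with summed levels of 39801 to 45212 CPM in sham and 28706 to 31943 CPM in BCP, and 8 of 14 neuron markers fell. Among the 10 astrocyte markers Gfap rose and 5 fell, and their summed level was 8428 to 8721 CPM in sham and 11461, 9634 and 9303 CPM in BCP 1, BCP 2 and BCP 3, with Aqp4, a water channel, at 2415, 360.0 and 362 CPM in these libraries. The 9 carcinoma epithelium markers summed to 6.08 to 7.82 and 7.36 to 10.9 CPM, with Krt5 at 0 in all libraries and none of the 3 tested genes past the threshold. The part of these cell types in the rise of Tgfb1, Tgfbr1, Tgfbr2 and Smad3 was not tested.

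Homeostatic microglia genes, several of which need TGF-beta signaling in microglia, were uneven. Of 14 tested genes 9 rose, among them Csf1r and Cx3cr1 of the previous list, Gas6 fell, and 4 did not pass the test, among them Tmem119, Gpr34 and Olfml3, with a median log2FC of 0.54 and summed levels of 562 to 634 CPM in sham and 912 to 1012 CPM in BCP. Cx3cr1, the fractalkine receptor, rose from 28.1 ± 2.22 to 74.7 ± 7.95 CPM, and P2ry12, a purinergic receptor of resting microglia, from 13.3 ± 2.17 to 22.9 ± 2.16 CPM (SD, n = 3). Tmem119, a surface marker of microglia, was at 14.3 ± 2.32 and 16.4 ± 5.18 CPM. Siglech was listed at 0 in all libraries.

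**Figure D4:**
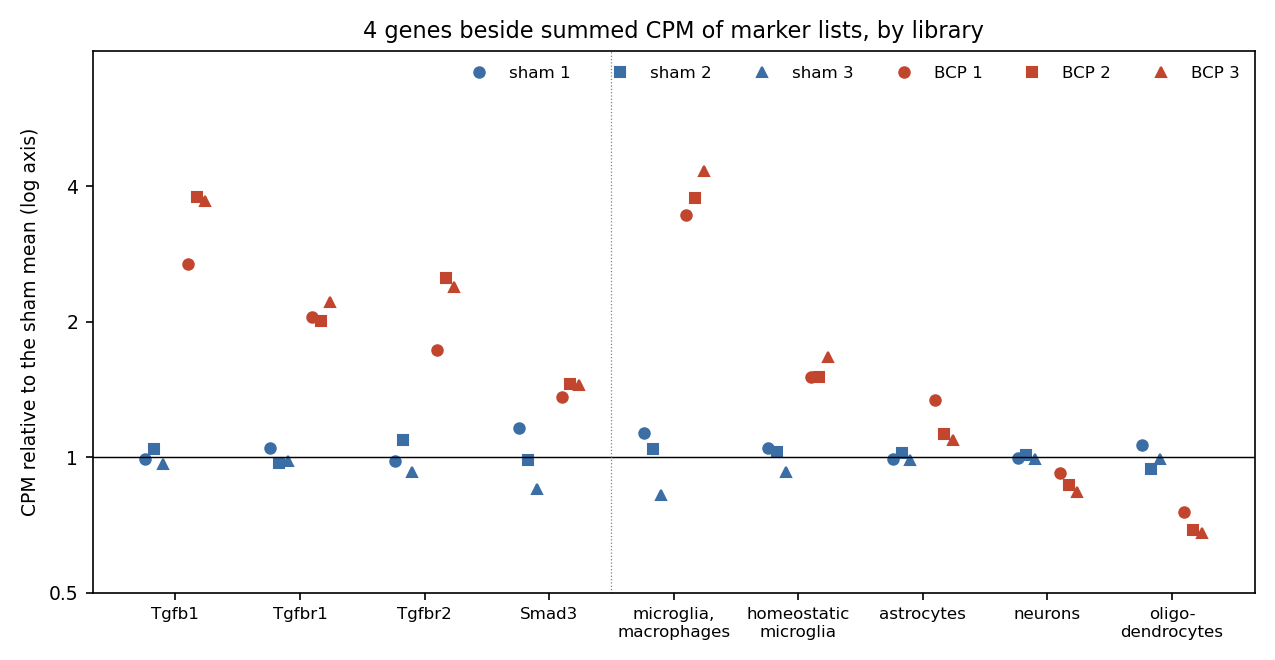
CPM of Tgfb1, Tgfbr1, Tgfbr2 and Smad3 and summed CPM of 5 marker lists in each library, divided by the mean of the sham libraries (vertical log axis; the line at 1 is the sham mean; sham blue, BCP red). BCP 1 lay lowest of the BCP libraries for Tgfb1, Tgfbr2, Smad3, the microglia and macrophage list and, narrowly, the homeostatic list (912, 916 and 1012 CPM in BCP 1, 2 and 3). It lay highest for the astrocyte, neuron (12007, 11263 and 10890 CPM) and oligodendrocyte (31943, 29187 and 28706 CPM) lists. In the astrocyte list Aqp4 was at 2415 CPM in BCP 1 and at 360.0 and 362 CPM in BCP 2 and BCP 3.

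The genes around the receptor complex moved in either direction. Outside the 10 names, 8 lists of the wider pathway held 102 tested genes, of which 22 rose (21.6%), 6 fell (5.88%) and 74 did not pass the test, with a median log2FC of 0.02. The shares among all tested genes were 15.8% and 12.1%. Of the 14 tested genes of latency and activation 5 rose and 2 fell, with a median log2FC of 0.10. Nrros, which holds latent TGF-beta 1 on the surface of microglia and macrophages, rose from 3.23 ± 1.05 to 9.64 ± 1.65 CPM (log2FC 1.59, SE 0.22, adjusted p = 1.91e-05 by edgeR). Furin, which cleaves the propeptide of TGF-beta, rose by a log2FC of 0.29, Thbs2, a thrombospondin, by 0.51, and Emilin1, which hinders this cleavage, by 0.58. Itgb8, the integrin chain that together with Itgav releases the latent ligand, fell from 145 ± 4.92 to 118 ± 8.06 CPM (log2FC -0.29, adjusted p = 4.04e-04 by edgeR). Ltbp3, which anchors latent TGF-beta in the matrix, fell as well (log2FC -0.28), though not with limma (adjusted p = 0.0580). The abundant integrin genes Itgav and Itgb5 did not pass the test, with log2FC of -0.11 and 0.03.

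Of 9 other receptors and coreceptors 2 rose and none fell (1 at an unadjusted p under 0.05 and none with DESeq2), with a median log2FC of 0.05. The risers made 22.2% of this list, while 15.8% of all tested genes were higher and 12.1% lower. Nrp1, a coreceptor of TGF-beta and of VEGF, rose from 56.0 ± 1.23 to 89.7 ± 2.57 CPM (log2FC 0.68, SE 0.06, adjusted p = 2.38e-08 by edgeR). Cd109, a coreceptor that restrains signaling, rose from 2.35 ± 0.559 to 3.88 ± 1.18 CPM with an adjusted p at the threshold (0.0497 by edgeR). It did not pass with DESeq2 (adjusted p = 0.146), with limma (adjusted p = 0.149), or without BCP 2, BCP 3 or any of the sham libraries. The endothelial coreceptor Eng, at 41.1 ± 4.17 and 45.6 ± 2.11 CPM, and Fkbp1a, which binds type I receptors, at 144 ± 2.46 and 134 ± 0.271 CPM, did not pass the test. Smad1, Smad5 and Smad6 did not pass the test either, nor with DESeq2, and 1 of them was lower at an unadjusted p under 0.05 by edgeR, with Smad1 at a log2FC of 0.06 and Smad5 at -0.19, and Smad9 was listed at 0 in all libraries.

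Of 18 anchors, corepressors and ubiquitin regulators of the Smads 5 rose and none fell (1 at an unadjusted p under 0.05 and none at an adjusted p under 0.05 with DESeq2), with a median log2FC of 0.08. The risers made 27.8% of this list, while 15.8% of all tested genes were higher and 12.1% lower. The risers included 4 corepressors of Smad transcription. Skil, also called SnoN, rose from 50.1 ± 1.89 to 72.9 ± 3.44 CPM (log2FC 0.54, SE 0.07, adjusted p = 2.32e-06 by edgeR). Ski, its relative, rose by a log2FC of 0.40, and Tgif1 by 1.10 from 2.77 ± 0.765 to 5.91 ± 0.480 CPM. Tgif2 rose by 1.57 from a low level, 0.549 ± 0.188 to 1.63 ± 0.518 CPM, and did not pass without BCP 3 (adjusted p = 0.0582 by edgeR). Zfyve9, the anchor known as SARA that brings Smad2 and Smad3 to the receptor, and the deubiquitinase Usp9x did not pass the test, with log2FC of -0.12 and 0.01.

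Of 28 tested target genes 11 rose (39.3%, against 15.8% of all tested genes) and none fell (against 12.1%). This held also at an unadjusted p under 0.05 and with DESeq2. The median log2FC was 0.29, the highest of the 8 lists. Skil, Ski and Tgif1 are among these risers and also among those of the Smad regulators, so that the 2 lists are not independent. Many of these genes also answer to other signals. Fn1, fibronectin, rose from 154 ± 7.54 to 236 ± 17.3 CPM (log2FC 0.61, SE 0.06, adjusted p = 6.51e-08 by edgeR). Junb, an AP-1 subunit, rose from 8.03 ± 0.835 to 18.3 ± 1.18 CPM (log2FC 1.19) and Bhlhe40, a transcriptional repressor, from 40.5 ± 1.58 to 59.5 ± 3.14 CPM (log2FC 0.56). Ctgf, connective tissue growth factor, which was chosen after its values were seen, rose from 11.7 ± 1.26 to 19.2 ± 4.45 CPM. Tsc22d1 was at 404 ± 23.8 and 381 ± 14.6 CPM and did not pass the test. Col1a1 did not pass either, with 19.1, 27.2 and 32.8 CPM in sham and 84.1, 33.0 and 26.5 CPM in BCP. BCP 1 stood apart and BCP 2 and BCP 3 lay close to the sham libraries, so that its log2FC of 0.85 was 0.18 without BCP 1.

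The branches for other ligands of the family held no up-regulated gene by edgeR, also at an unadjusted p under 0.05, or by DESeq2. Of 9 tested genes of the activin branch none rose and 2 fell, the type I receptor Acvr1c, also called ALK7 (log2FC -0.69), and the ligand Gdf11 (log2FC -0.19), with a median of -0.19. Of 18 tested genes of the BMP branch none rose and 2 fell, the ligand Bmp4, from 18.1 ± 1.10 to 12.7 ± 0.628 CPM (log2FC -0.50, adjusted p = 0.00163 by edgeR), and the metalloproteinase Bmp1 (log2FC -0.24), with a median of -0.16. Bmp1 passed in 4 of 13 other settings. It did not pass with DESeq2, limma, RLE size factors, library totals only, at least 10 counts in every library or the replicate block. Nor did it pass without BCP 2, sham 1 or sham 2. Gdf11 passed in 8 of 13, not with limma or library totals only, nor without BCP 2, BCP 3 or sham 3. The receptor genes Bmpr2 and Bmpr1a did not pass the test. The Smad-independent kinase branch had 2 of 9 tested genes higher, Tab2, an adaptor of the kinase TAK1 (log2FC 0.26), and Xiap (log2FC 0.20), with a median of 0.08. Among all tested genes 15.8% were higher and 12.1% lower. The fallers made 22.2% of the activin branch and 11.1% of the BMP branch, the latter near the share of all tested genes. The risers made 22.2% of the kinase branch. With so few genes per list these counts are descriptions, and no difference between these lists was tested.

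**Figure D5:**
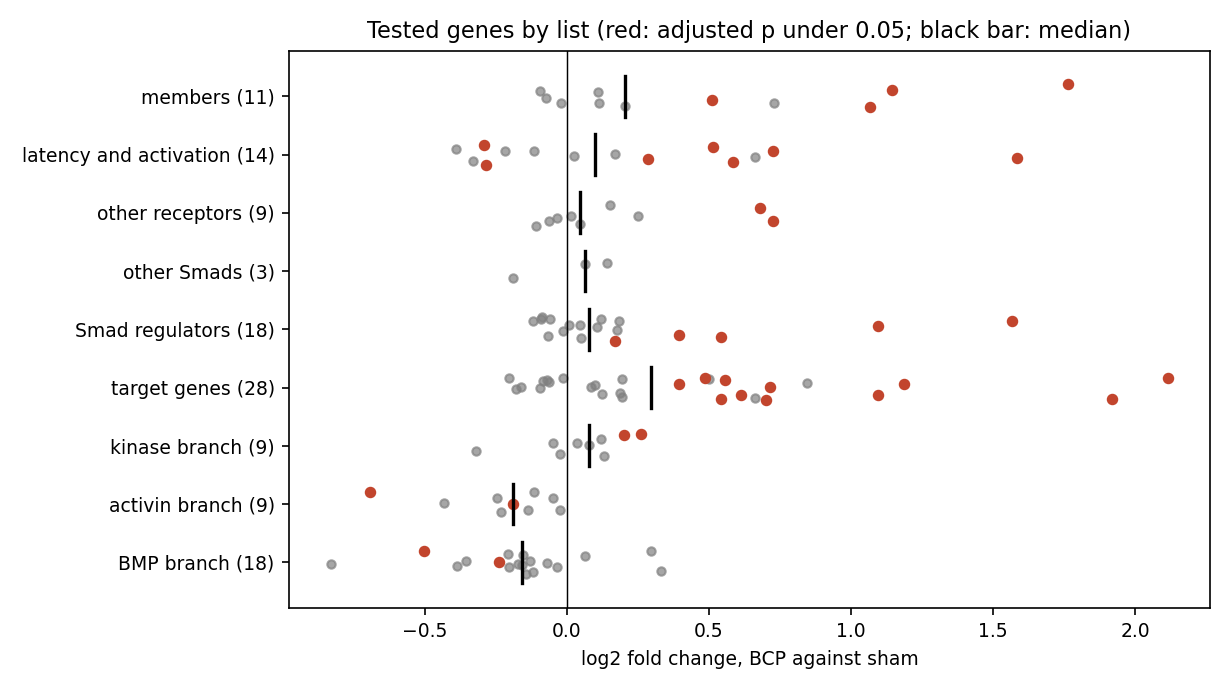
The log2 fold change of BCP against sham (horizontal axis) of each tested gene of the 11 rows and of the 8 lists of the wider pathway, with the number of tested genes in brackets; red points had an adjusted p under 0.05 by edgeR and black bars are medians. The medians were 0.29 for target genes, -0.19 for the activin branch and -0.16 for the BMP branch.

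Long noncoding RNAs (lncRNAs) beside the 10 genes were taken from the deposited lncRNA table, as transcripts that overlap a gene or lie within 10 kb of it. Of 22 such lncRNAs 8 had enough counts to be tested, 5 of them overlapping the gene, and none of these lay near Tgfb1, Tgfb2 or Tgfbr1. None had an adjusted p under 0.05 by edgeR or by DESeq2, while 1.57% of the 12157 tested lncRNAs were higher and 0.395% lower, and 2 had an unadjusted p under 0.05 by edgeR. The lncRNA MSTRG.9382.1, inside Tgfbr3 (chr14:3587462-3589523), had 67, 85 and 79 counts in sham and 39, 39 and 54 in BCP. It was lower in every BCP library (log2FC -0.66, SE 0.20, adjusted p = 0.180 by edgeR). MSTRG.30585.1, inside Tgfbr2 (chr8:124336345-124336876), had 6, 6 and 13 counts in sham and 14, 12 and 24 in BCP, which overlapped as counts but not as CPM (log2FC 1.14, SE 0.44, adjusted p = 0.307 by edgeR). The other 6 tested lncRNAs were NONRATT024518.2 near Tgfb3, NONRATT028679.2 and NONRATT027781.2 at Smad3, MSTRG.14435.1 in Smad7, NONRATT013586.2 near Smad2 and NONRATT013917.2 in Smad4, with log2FC from -0.03 to 1.25. The highest of these, NONRATT028679.2, had 0, 24 and 58 counts in sham and 62, 44 and 64 in BCP. The strand used in counting is not given in the sources used here, so that reads of an overlapping lncRNA and its host gene may not have been separated.

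The genes whose 6 libraries were most like those of Tgfb1 were chosen by the root mean square difference of log2(CPM + 0.5) after subtraction of the sham mean. They were Arl11 (0.0933), Nfkbiz (0.103), Cd3d (0.103), Akna (0.109) and Ucp2 (0.113). Arl11 had 2.97, 3.28 and 2.70 CPM in sham and 9.39, 10.9 and 12.3 CPM in BCP, and Akna had 18.61, 21.02 and 20.001 CPM and 60.3, 67.0 and 76.1 CPM. BCP 1 was the lowest BCP library for each of the 5 genes, as it was for Tgfb1. The choice by likeness to Tgfb1 favors this order, so that it is no separate result. Cd3d was at 0 in all sham libraries, so that its place rests on the constant of 0.5 CPM.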

How the data were processed

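Total RNA of 6 libraries was sequenced by the authors on strand-specific libraries depleted of ribosomal RNA. Per the labels and methods, reads were mapped to Rnor_6.0 with HISAT2 2.0.4 and quantified with StringTie 1.3.0. The deposited gene and lncRNA tables give unnormalized counts and FPKM values per library, and the program that counted, its use of strand and its handling of reads with several locations are not given in the sources used here. The quasi-likelihood test of edgeR 4.0.16 (R 4.3.3) was applied to the counts on condition alone, after edgeR's filter by expression and TMM normalization (factors 0.982 to 1.02), with Benjamini-Hochberg adjustment over all 14908 tested genes or 12157 lncRNAs. CPM are counts scaled by the library total after TMM. FPKM were used for shares, ratios and levels between genes, compared with exact two-sided permutation tests. Alternatives were DESeq2 1.42.0, limma 3.58.1 on log2(FPKM + 0.1), other scalings and filters, the replicate number as a block and each library left out. The biological coefficient of variation was 7.72% for genes and 33.4% for lncRNAs, so lncRNAs were measured less precisely.

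All members were named; from each list of the wider pathway, up to 4 genes of the lowest p-values per direction and the 2 most abundant genes that did not pass were eligible to be named, and lists of markers are given by counts and sums, with genes beyond their first 3 named after their values were seen. Members and lists were chosen with earlier results of these data known. Both rows named Tgfbr1 were kept, which makes 11 rows of 10 names. Some genes of the lists are not reported here. The code was tested on simulated counts. Figures were drawn with matplotlib 3.10.9.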

Additional observations from a re-analysis of the deposited data

How the results depend on the processing

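The up-regulation of Tgfb1 (log2FC 1.68 to 1.91), Tgfbr1 (1.02 to 1.11), Tgfbr2 (1.05 to 1.297) and Smad3 (0.41 to 0.63) kept an adjusted p under 0.05 in all 13 alternatives. Smad2 gained it with RLE size factors, with at least 10 counts in every library, with library totals only and with limma on FPKM, which makes 5 rows higher in place of 4. The log2FC of Tgfb3, -0.02, turned to 0.020 with library totals only and to 0.015 with limma on FPKM, and lay between -0.077 and 0.054 with a library left out; it was positive without BCP 1 or without sham 1. The difference in the log2 ratio of Tgfbr2 to Tgfbr1, 0.06, ranged from -0.066 (without BCP 2) to 0.21 (without BCP 1), and that of Smad7 to Smad2 and Smad3, -0.19, from -0.25 (without BCP 2) to -0.12 (without BCP 3). The log2FC of the second row of Tgfbr1, 0.73, was 0.12 without sham 3, which had 0 counts, 1.18 without sham 1 and 1.11 without sham 2. Genes of the wider pathway that fell numbered 6 and were 3 with limma on FPKM, 4 with library totals only and 4 to 8 when each library was left out. Those that rose numbered 22 and were 20 with limma on FPKM, 26 with library totals only and 20 to 23 when each library was left out. The TMM factors were 0.982 to 0.989 in sham and 1.01 to 1.02 in BCP, so that small changes depend on the scaling. The cause of these shifts was not tested. The deviations of libraries with the same replicate number correlated at -0.11, 0.05 and -0.04, and those of libraries with different numbers at -0.13 to 0.15. With 3 libraries per group these values cannot decide whether the numbers pair the libraries. With the replicate block, 4 rows were higher, 0 lower and 3 past 2-fold, the wider pathway had 22 higher and 5 lower, and the log2FC was 1.75 for Tgfb1 and 1.13 for Tgfbr2. The lncRNA count of 0 held in all 15 alternatives. With 3 libraries per group, shares and ratios could not reach a permutation p under 0.1, and the second row of Tgfbr1 and lncRNAs with few counts were limited by depth.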

Other observations

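The gene table annotates genes to the KEGG pathway of TGF-beta signaling and to the GO terms of TGF-beta receptor signaling, and these lists were examined after the data had been seen. Outside the 10 genes, 57 genes of the KEGG pathway were tested, of which 12 rose (21.1%) and 4 fell (7.02%), with a median log2FC of -0.01. Among all tested genes these shares were 15.8% and 12.1%. The other 41 genes did not pass the test, and the genes named here from this pathway were all higher in BCP. Myc, a transcription factor that TGF-beta represses in many cells, rose from 3.42 ± 0.805 to 15.8 ± 1.51 CPM (SD, n = 3; log2FC 2.21, adjusted p = 5.04e-09 by edgeR). Tnf, an inflammatory cytokine, had 4, 6 and 4 counts in sham and 31, 59 and 64 in BCP. Ifng, interferon gamma, had 0 counts in every sham library and 18, 25 and 18 in the BCP libraries. Sp1, which binds GC boxes, rose from 105 ± 1.57 to 131 ± 6.75 CPM. Of 92 tested genes of the GO terms 22 rose (23.9%) and 9 fell (9.78%), with a median log2FC of 0.05. Fermt2, which links integrins to the cytoskeleton, fell from 203 ± 9.20 to 174 ± 3.46 CPM (SD, n = 3). It is the only example given here for these terms, and it went against the larger number of genes that rose.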
